A study of Mus musculus with 8 samples.

Results

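The genes described here encode the protein components of the cytosolic ribosome, measured in Thy1-positive testis cells of wild type (WT) mice and of mice labelled Glis3KO2. Members were chosen by name: every array probe whose RefSeq accession belongs to an Rpl or Rps gene, to the stalk genes Rplp0, Rplp1 and Rplp2, or to Rpsa, with the Rps6k kinases left out. This gave 76 genes of the 17513 that could be tested, read by 111 probes. 43 encode other proteins of the large subunit, 30 proteins of the small subunit and 3 the stalk. All 111 probes passed the filter on dim signal. 4 members (Rps4x, Rpl10, Rpl36a and Rpl39) lie on the X chromosome and 72 on autosomes.

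The samples were 4 WT and 4 Glis3KO2 preparations of cells carrying Thy1, a surface protein used to enrich spermatogonial progenitors. They came from C57BL/6 pups at postnatal day 4 that had stayed with their mothers and received no treatment. The labels call the cells testis spermatogonial progenitor cells and give no promoter, Cre driver or exon for the Glis3 allele. Glis3 encodes a Krüppel-like zinc finger transcription factor, and the study asked what its loss does to spermatogenesis. The design text counts 3 testes of each genotype where the labels list 4 samples. The labels do not say whether the 4 preparations of a genotype are different animals, so every p-value rests on variation between preparations that may be only technical. Each RNA was amplified before labelling with Cy3 and read on its own Agilent array in 1 colour.

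A ribosome joins a small subunit, which decodes the message, to a large subunit, which forms the peptide bond, and nearly every ribosomal protein is present as a single copy per ribosome. In mammals most of these proteins are made from messages of the TOP class, which begin with a cytosine and an unbroken stretch of pyrimidines. Their translation, more than their transcription, is set by mTOR and the RNA-binding protein Larp1. An array measures the amount of message and not its translation. All signals below are log2 of the spot signal minus the array's 75th percentile, so 0 is the 75th percentile of that array and a step of 1 is a doubling. Because the scale is relative to the whole array, and the samples are bulk RNA, fewer cells of a type and less RNA per cell cannot be told apart. Signals of different probes are not set against each other.

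Start regions of 6 members are shown because the TOP class is defined there. Each stretch is 70 bases, 50 before and 20 after the start annotated by RefSeq (GRCm38.p6), 5′ to 3′ on the gene's own strand, and capitals mark unbroken runs of at least 6 pyrimidines that touch the stretch from 10 bases before to 15 after the start; runs farther away stay in lower case.
Rps6 (chr4:86857348-86857417, minus strand): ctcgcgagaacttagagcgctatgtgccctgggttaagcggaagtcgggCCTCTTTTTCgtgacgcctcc
Rplp2 (chr7:141447601-141447670, plus strand): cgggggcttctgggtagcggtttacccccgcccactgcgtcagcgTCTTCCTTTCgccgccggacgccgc
Rpl14 (chr9:120571467-120571536, plus strand): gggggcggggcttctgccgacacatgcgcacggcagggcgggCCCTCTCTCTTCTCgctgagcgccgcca
Rpl39 (chrX:37085203-37085272, minus strand): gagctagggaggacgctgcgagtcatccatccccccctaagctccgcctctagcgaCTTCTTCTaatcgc
Rpl10 (chrX:74270766-74270835, plus strand): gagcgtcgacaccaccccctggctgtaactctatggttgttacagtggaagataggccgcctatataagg
Rpl36a (chrX:134585604-134585673, plus strand): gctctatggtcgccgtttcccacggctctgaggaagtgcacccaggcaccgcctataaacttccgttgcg
Rps6, Rplp2 and Rpl14 carry runs of 10, 10 and 14 pyrimidines across the annotated start, and Rpl39 a run of 8 a few bases downstream. Rpl10 and Rpl36a have no run of that length within the bases scanned around the start.

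Start regions were available for 57 members, in 67 windows, since a gene can have more than 1 annotated start. A pyrimidine run of at least 6 between 10 bases before and 15 after the start was found in 33 windows (49.3%), against 24.4% of 32851 windows over all genes. The annotated start was a C in 31.3% of member windows and in 16.3% of all windows. Over the whole 300 bases (250 before and 50 after the start), CCGGAAG, the core bound by ETS factors, was present on either strand in 37.3% of member windows and 8.86% of all windows. TCTCGCGA was present on either strand in 17.9% and 0.995%. The letters of these motifs can overlap a pyrimidine run. The matches are a description of the sequence and not of binding. The median difference between genotypes was 0.08 in the 32 members with a run and 0.11 in the 25 without.

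The series as a whole set the scale for what could be seen. Between 86.0% and 90.3% of spots were well above background, no spot was saturated, and arrays correlated pairwise at r = 0.908 to 0.965 over genes. Glis3 read -1.09, -1.01, 0.57 and 0.60 on WT replicates 1 to 4. On Glis3KO2 replicates 1 to 4 it read -1.98, -2.18, -1.18 and -1.32. The groups did not overlap, though WT replicate 1 and Glis3KO2 replicate 3 nearly met. The labels do not place its probe relative to the deletion. WT replicates 3 and 4 stood apart on the first principal component (32.3% of the variance), at 69.1 and 60.0, where no other array was above 3.85. All 22 measured markers of germ cells and undifferentiated spermatogonia had a lower mean in Glis3KO2 (median difference -0.95), and all 16 stromal markers a higher mean (0.91; 14 of 16 after normexp with 75th percentile scaling). Of 4 markers of differentiating spermatogonia 3 had a higher mean (0.31), and 1 after that alternative scaling (-0.17). Over all genes 40.8% had a higher mean, and none of these markers passed the adjusted p threshold of 0.05. On each of the 2 slides the WT arrays held positions 1 and 2 and the Glis3KO2 arrays positions 3 and 4, so position and genotype cannot be told apart.

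No ribosomal protein gene passed the test for a difference between the genotypes. 0 of 76 members passed limma's Benjamini-Hochberg adjusted p threshold of 0.05, where 0% of all genes did, and adjusted p over the members ran from 0.697 to 0.999. 0 members reached an unadjusted p under 0.05, which 6.9% of all genes reached (2.15% as higher and 4.75% as lower in Glis3KO2). With the replicate number as a block these counts became 1 member and 10.7% of all genes, still with 0 adjusted calls. In 0 members did the 4 Glis3KO2 arrays lie clear of the 4 WT arrays, which occurred in 0.902% of all genes as higher and 2.6% as lower. The standard error of a member's log2 difference was 0.19 to 0.34, and a difference of only that size could not be resolved with 4 arrays a group. The 95% confidence interval ran from -0.63 to 0.24 for Rpl18 (SE 0.19) and from -0.48 to 1.04 for Rpl13a (SE 0.34).

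The group mean was higher in Glis3KO2 for 56 of 76 members (73.7%), against 40.8% of all genes. The median log2 difference over members was 0.09, with a range of -0.20 to 0.66, and the median over all genes was -0.08. Large subunit genes had a median difference of 0.10 (34 of 43 higher), small subunit genes 0.09 (20 of 30 higher) and stalk genes 0.03 (2 of 3 higher). This lean rested on a pair of arrays. Without Glis3KO2 replicate 2 the median over members was -0.09, near the -0.08 over all genes, and 25 of 76 members were higher. Without WT replicate 3 the median over members was -0.01, against -0.07 over all genes, and 33 members were higher. The scaling moved it too: after normexp background correction and 75th percentile scaling it was 0.29, with 75 of 76 higher, while the median of all genes was -0.23.

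**Figure D1:**
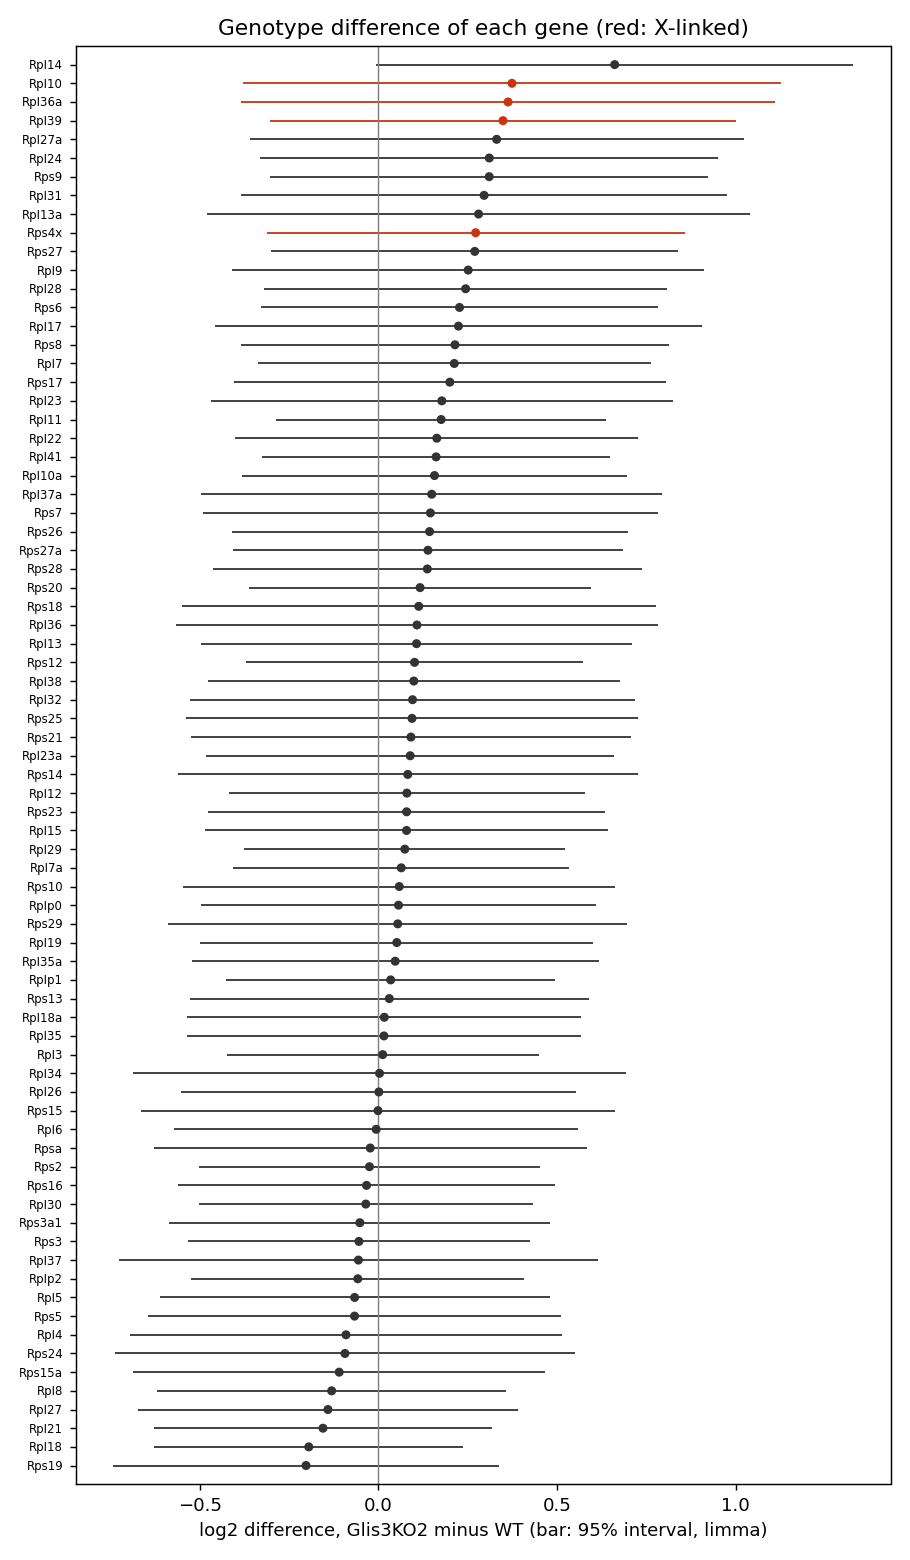
Log2 difference of each of the 76 ribosomal protein genes (Glis3KO2 minus WT, points, with 95% confidence intervals as bars, 4 arrays a group), ordered by size. Points run from -0.20 to 0.66 and every interval includes 0.

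What the members shared was their pattern over single arrays. With each gene centred on its mean of the 8 arrays, the median of the members was 0.01, 0.09, -0.37 and 0.12 on WT replicates 1 to 4. On Glis3KO2 replicates 1 to 4 it was -0.09, 0.52, -0.18 and -0.09. Glis3KO2 replicate 2 stood above the other 7 arrays and WT replicate 3 below them, while the remaining 6 lay between -0.18 and 0.12. The mean of these medians was -0.04 ± 0.22 (SD, n = 4) in WT and 0.04 ± 0.33 (SD, n = 4) in Glis3KO2, a gap far smaller than the spread within either genotype.

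**Figure D2:**
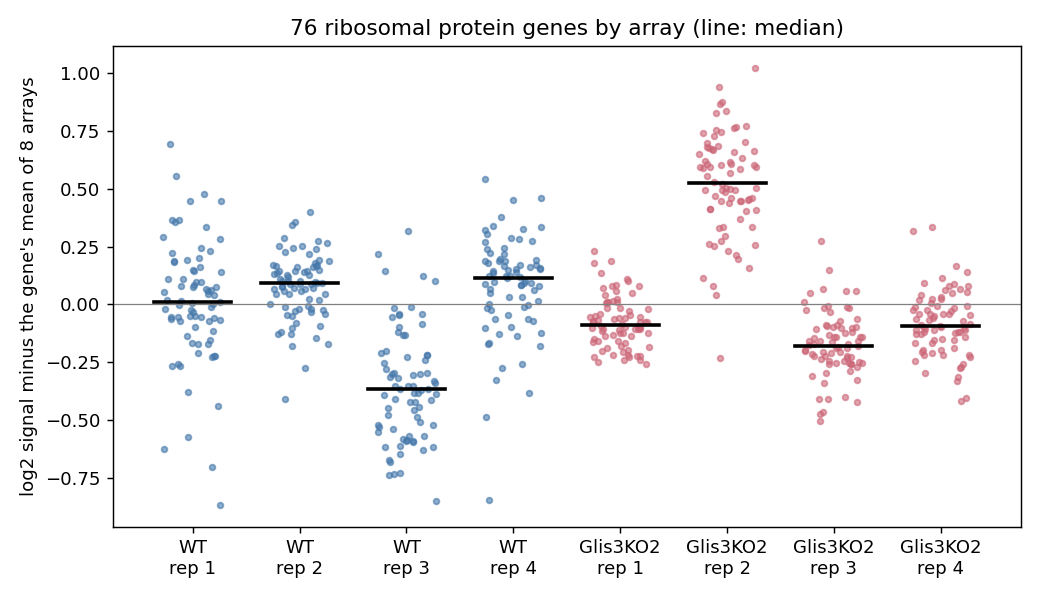
Log2 signal of each ribosomal protein gene minus that gene's mean of the 8 arrays (points, 76 genes per array; WT blue, Glis3KO2 red), with the median as a black line. The median reaches 0.52 in Glis3KO2 replicate 2 and -0.37 in WT replicate 3.

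65 of 76 members had their highest signal in Glis3KO2 replicate 2, as did 15.1% of all genes. 51 had their lowest in WT replicate 3, as did 11.9% of all genes, and 47 had both (4.05% of all genes). Within Glis3KO2, replicate 2 was above the other 3 arrays in 74 members (29% of all genes). Within WT, replicate 3 was below the other 3 in 62 (19.4% of all genes). The high array was the same under every scaling tried, with 53 to 65 members highest there. The low array was not: 48 to 51 members were lowest in WT replicate 3 under 4 of the 5 scalings, and 15 (7.13% of all genes) after normexp with 75th percentile scaling.

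Read by replicate number, the direction therefore changed from pair to pair. Glis3KO2 was above WT in 28 members in pair 1 (45.4% of all genes), in 74 in pair 2 (50.1%), in 58 in pair 3 (41.2%) and in 18 in pair 4 (42.3%). The median pair differences were -0.09, 0.45, 0.18 and -0.21. Replicates 1 and 3 shared 1 slide and replicates 2 and 4 the other, and the median difference was 0.04 on the first slide and 0.11 on the second.

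The members' signals moved together over these arrays. The mean correlation between pairs of members, taken on deviations from the group mean over 8 arrays, was 0.66. Over all genes it was 0.01, and over 729 other genes with a mean signal above the members' lower quartile (3.28) it was 0.02. The points share arrays, amplification and scaling, and the correlation is given as a description. Without Glis3KO2 replicate 2 it was 0.45, without WT replicate 3 it was 0.64, and with both left out it was 0.06. Those arrays were picked from the same values as the members' extremes, so the drop is a description and not a test. The median within-group SD was 0.32 for the members, 0.30 for the other bright genes and 0.43 over all genes.

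Individual members followed the common pattern to different degrees. Over the 8 arrays the correlation of a member with the median of the others had a median of 0.87 and was highest for Rpl13 (0.99). Rpl13 read 4.88, 4.99, 4.39 and 4.99 on WT replicates 1 to 4 and 4.81, 5.55, 4.68 and 4.65 on Glis3KO2 replicates 1 to 4. At the other end stood Rpl21, a large subunit gene, with a correlation of -0.69. Rpl21 read 2.92, 2.63, 3.13 and 2.88 in WT and 2.59, 2.58, 2.87 and 2.90 in Glis3KO2, highest on the array where most members were lowest. Its dimmer probe did not share this order. That probe was highest in WT replicate 1 (-0.74) and read -2.17 in WT replicate 3. Within Glis3KO2 it was highest in replicate 2 (-1.12). Rplp1 (0.08), Rpl31 (0.21), Rpl27 (0.21) and Rps2 (0.22) also followed the median weakly. These genes were singled out after their values were seen, and each was read on its probe of highest mean. The other Rpl31 probe had the common pattern, highest in Glis3KO2 replicate 2 (0.02) and lowest in WT replicate 3 (-1.19).

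Other readings differed on the same arrays, and their part in the pattern was not tested. The 75th percentile signal was 355, 533, 243 and 272 on the WT arrays and 374, 458, 251 and 341 on the Glis3KO2 arrays. Very bright spots are read from a second scan at lower gain, which supplied 28.9% of members on Glis3KO2 replicate 2, 21.1% on WT replicate 2, and between 1.32% and 11.8% on the others. Over all genes the shares were 0.80% on Glis3KO2 replicate 2, 0.71% on WT replicate 2, and between 0.22% and 0.47% on the others. The other 729 bright genes had a median of 0.08 on Glis3KO2 replicate 2 and 0.03 on WT replicate 3. They share with the members only a floor on the mean signal. The 16 stromal markers were highest on Glis3KO2 replicate 2 too (median 1.40), and low on WT replicates 3 and 4 (-1.07 and -1.23). The 22 germ cell markers were lowest on Glis3KO2 replicate 2 (-0.65) and high on WT replicates 3 and 4 (0.85 and 1.07). WT replicate 4, like replicate 3 in its germ cell and stromal markers, had a member median of 0.12. Not every reading matched on both arrays. Thy1 read 1.33 on WT replicate 3 and -0.03 on WT replicate 4, and the Leydig cell markers had medians of 0.39 and -1.24.

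**Figure D3:**
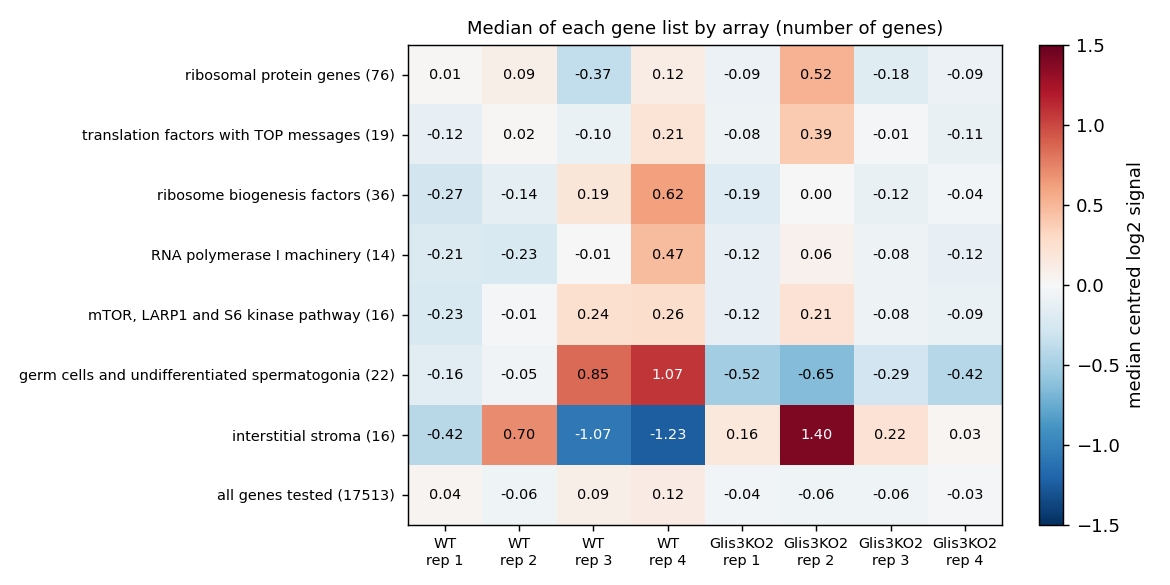
Median log2 signal of each gene list on each array, every gene centred on its mean of the 8 arrays (colour and printed value; number of genes in brackets). Ribosomal protein genes and translation factors are highest in Glis3KO2 replicate 2, and germ cell markers are highest in WT replicates 3 and 4.

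The 4 X-linked members took ranks 2, 3, 4 and 10 of 76 by difference and had a median difference of 0.36, against 0.08 in the 72 autosomal members and -0.00 in 625 other X-linked genes. None passed the test, and the intervals of all 4 include 0. Their mean was higher in Glis3KO2 under each scaling tried, by 0.26 at the least and 0.60 at the most.

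Rpl10 joins the large subunit late in its assembly and is needed before the subunits can pair. It read 3.17, 3.49, 2.36 and 2.60 on WT replicates 1 to 4 and 3.18, 4.03, 3.00 and 2.90 on Glis3KO2 replicates 1 to 4. The groups overlapped, with WT replicates 3 and 4 below every Glis3KO2 array and WT replicates 1 and 2 among them. The difference was 0.37 (SE 0.34, limma adjusted p = 0.768).

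Rpl36a encodes a small large-subunit protein. It read 5.91, 6.08, 5.09 and 5.50 in WT and 5.84, 6.85, 5.63 and 5.72 in Glis3KO2, with the same order of WT arrays. Its difference was 0.36 (SE 0.33, limma adjusted p = 0.773), and its 3 probes gave differences of 0.19 to 0.40.

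Rpl39 is among the smallest ribosomal proteins and lines the exit tunnel of the growing peptide. It read 2.39, 2.42, 1.34 and 1.91 in WT and 2.27, 2.78, 2.10 and 2.30 in Glis3KO2, again with WT replicates 3 and 4 lowest. The difference was 0.35 (SE 0.29, limma adjusted p = 0.755).

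Rps4x is the X-linked member of the small subunit. It read 3.58, 3.46, 2.68 and 2.91 in WT and 3.48, 3.70, 3.26 and 3.27 in Glis3KO2. WT replicates 3 and 4 were once more the lowest arrays, and the difference was 0.27 (SE 0.26, limma adjusted p = 0.783).

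WT replicates 3 and 4 both lay below all 4 Glis3KO2 arrays in 4 of 4 X-linked members, in 5 of 72 autosomal members (6.94%), in 105 of 625 other X-linked genes (16.8%) and in 11.3% of all genes. The 4 X-linked members showed this under each scaling tried, and 4 to 8 of the autosomal members did. These are the arrays with the highest germ cell markers, and the part of cell makeup in this was not tested. Against WT replicates 1 and 2 alone, the differences of Rps4x, Rpl10, Rpl39 and Rpl36a were -0.09, -0.05, -0.04 and 0.01. The X-linked median by pair was -0.09, 0.45, 0.61 and 0.33.

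**Figure D4:**
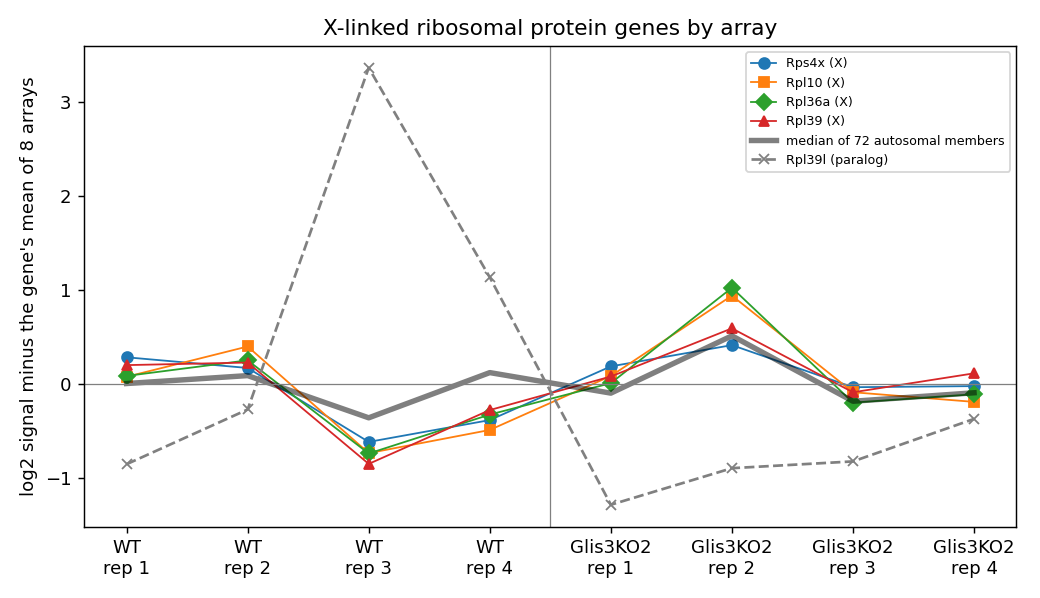
Log2 signal on each array minus the gene's mean of the 8 arrays for Rps4x, Rpl10, Rpl36a and Rpl39 (points joined by lines, 1 point per array). The thick line is the median of the 72 autosomal members and the dashed grey line is the paralog Rpl39l. In each X-linked member WT replicates 3 and 4 lie below all 4 Glis3KO2 arrays, and WT replicates 1 and 2 lie among them.

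Rpl39l, an autosomal paralog of Rpl39 expressed mainly in male germ cells, ran the other way on the same arrays. It read 0.02, 0.60, 4.24 and 2.01 in WT and -0.41, -0.02, 0.05 and 0.50 in Glis3KO2. WT replicates 3 and 4 were far above the rest, WT replicate 1 lay among the Glis3KO2 arrays and WT replicate 2 just above them. The difference was -1.69 (SE 0.76, limma adjusted p = 0.697). A second, dim Rpl39l probe, clearly over background on 2 of 4 WT and 3 of 4 Glis3KO2 arrays, gave 0.76. Rpl39 had its lowest signal, and the brighter Rpl39l probe its highest, in WT replicate 3.

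8 paralogs and fused or associated ribosomal genes were measured, and 0 were called (0% of all genes) or reached a limma unadjusted p under 0.05 (6.9% of all genes). Rps4l, a relative of Rps4x, had a difference of -0.33 and was highest in WT replicate 4 (3.48). Rpl36al, a retrocopy-derived relative of Rpl36a, differed by 0.18. Rpl7l1 differed by -0.37, Rpl22l1 by 0.08 and Rps27l by 0.09. Fau, in which a ribosomal protein is made as a fusion with a ubiquitin-like protein, differed by 0.07. Rack1, a signalling scaffold on the small subunit, differed by 0.12. Probes for near-identical copies and processed pseudogenes may share signal with their parent genes, and how far was not tested.

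Rpl14, a large subunit gene, had the largest difference of the members on the scale used here. Its only probe read -2.58, -1.64, -2.56 and -2.06 in WT and -2.01, -1.01, -1.60 and -1.56 in Glis3KO2, below the 75th percentile throughout. Its Glis3KO2 array was above the WT array in 4 of 4 pairs, though the groups overlapped because WT replicate 2 lay among the Glis3KO2 arrays. The difference was 0.66 (SE 0.30, 95% interval -0.01 to 1.33, limma adjusted p = 0.697). After normexp with 75th percentile scaling it was 0.12, below the values of Rpl36a (0.60), Rpl39 (0.59) and Rps9 (0.56) on that scale. With the replicate block its limma unadjusted p moved from 0.052 to 0.0147 and the adjusted p was 0.422.

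Rps9, an early-binding protein of the small subunit, read 3.77, 4.24, 3.44 and 3.84 in WT and 4.03, 4.73, 3.96 and 3.81 in Glis3KO2. The groups overlapped, and the difference was 0.31 (SE 0.28, limma adjusted p = 0.765), or 0.11 without Glis3KO2 replicate 2 and 0.18 without WT replicate 3. Rps6, the substrate that gave S6 kinase its name, read 4.07, 4.40, 3.65 and 4.37 in WT and 4.30, 4.70, 4.09 and 4.32 in Glis3KO2. Its difference of 0.23 (SE 0.25, limma adjusted p = 0.815) was smaller than the SD of either group, and it was 0.07 without WT replicate 3. Rpl13a, which can leave the ribosome to silence inflammatory messages, had the largest within-group SD of the members, 0.52. It read 2.31, 3.17, 2.28 and 3.22 in WT and 3.06, 3.72, 2.48 and 2.84 in Glis3KO2, so arrays of 1 genotype differed by more than the group means did (0.28).

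The stalk recruits elongation factors to the ribosome. Rplp0, its base, read 4.74, 5.16, 4.86 and 5.11 in WT and 4.87, 5.58, 4.75 and 4.89 in Glis3KO2, with replicate 2 alone above the WT range. Its difference was 0.06 (SE 0.25). Rplp1 read 3.13, 2.85, 3.08 and 3.37 in WT and 3.02, 3.17, 3.27 and 3.11 in Glis3KO2, and it did not share the high array of the other members. Rplp2 read 6.07, 5.82, 5.78 and 6.11 in WT and 5.69, 6.15, 5.89 and 5.82 in Glis3KO2. For Rplp1 and Rplp2 the differences were 0.03 and -0.06, with SE 0.21 each.

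Rpl5 and Rpl11 form, with 5S rRNA, the particle that binds Mdm2 when ribosome assembly fails. Rpl5 read 5.08, 5.04, 4.59 and 5.18 in WT and 4.74, 5.39, 4.75 and 4.74 in Glis3KO2, where replicate 2 stood alone. Rpl11 read 0.75, 0.82, 0.55 and 0.74 in WT and 0.78, 1.20, 0.81 and 0.76 in Glis3KO2. Their differences were -0.07 (SE 0.24) and 0.18 (SE 0.21), and that of Rpl11 was 0.07 without Glis3KO2 replicate 2. In both genes the other 3 Glis3KO2 arrays lay close together and replicate 2 lay above every WT array.

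The members with a lower mean in Glis3KO2 differed by small amounts. Rps19, the gene most often altered in Diamond-Blackfan anaemia, read 0.56, 0.59, 0.44 and 0.63 in WT and 0.35, 0.91, 0.11 and 0.03 in Glis3KO2. 3 of its Glis3KO2 arrays lay below all WT arrays and replicate 2 above them. The difference was -0.20 (SE 0.24, limma adjusted p = 0.828). Rpl18, a large subunit gene, had the steadiest WT values of the named members, 4.73, 4.84, 4.77 and 4.74. Its Glis3KO2 values were 4.53, 4.79, 4.45 and 4.53, with replicate 2 alone within the WT range. The difference was -0.19 (SE 0.19, limma adjusted p = 0.793). The other large subunit genes Rpl21, Rpl27 and Rpl8 differed by -0.16, -0.14 and -0.13. After normexp with 75th percentile scaling these 3 and Rpl18 had a higher mean in Glis3KO2, by 0.02 to 0.14.

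Probes of a gene did not always give the same answer. 29 members had more than 1 probe, the median gap between a gene's probes was 0.14 in log2 difference, and in 12 of the 29 the probes differed in sign. The widest gaps were in Rpl37 (-0.06 and 0.93), Rps25 (0.09 and -0.83) and Rpsa (-0.02 and -0.94). In each case the other probe was the dimmer one. The dim Rpl37 probe exceeded background clearly on 3 of 4 arrays of WT and on all 4 of Glis3KO2. Rps25 is a small subunit gene. Its brighter probe read 5.58, 5.34, 4.66 and 5.39 in WT and 5.24, 5.90, 5.12 and 5.08 in Glis3KO2, which overlap. On its dimmer probe all Glis3KO2 arrays lay below all WT arrays (SE 0.27, limma adjusted p = 0.730 over all probes). Rpsa, also known as the laminin receptor, read 2.49, 3.18, 3.26 and 3.56 in WT and 2.87, 3.44, 3.04 and 3.05 in Glis3KO2 on its brighter probe, with overlapping groups.

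Genes that work with the ribosome were read from 4 lists, and 0 genes of any list passed the adjusted threshold. Of 19 measured translation factors with TOP messages, 12 had a higher and 7 a lower mean in Glis3KO2, with a median of 0.06. After normexp with 75th percentile scaling all 19 were higher, with a median of 0.25. Their medians by array were -0.12, 0.02, -0.10 and 0.21 in WT and -0.08, 0.39, -0.01 and -0.11 in Glis3KO2, so they shared the high array of the ribosomal proteins. Tpt1, the translationally controlled tumour protein, differed by 0.26 and Naca, a chaperone subunit at the tunnel exit, by 0.24.

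36 ribosome biogenesis factors, which process rRNA and assemble the subunits, had another pattern over the arrays. 28 had a lower and 8 a higher mean in Glis3KO2 (median -0.14), where 40.8% of all genes had a higher mean and the median over all genes was -0.08. 2 were lower with a limma unadjusted p under 0.05, as were 4.75% of all genes. After normexp with 75th percentile scaling 18 were lower and 18 higher. By array their medians were -0.27, -0.14, 0.19 and 0.62 in WT and -0.19, -0.00, -0.12 and -0.04 in Glis3KO2, highest in WT replicate 4. Rrp9, a protein of the U3 snoRNP that starts rRNA processing, read 0.79, 0.26, 0.22 and 0.67 in WT and -0.79, -0.17, -0.38 and -0.42 in Glis3KO2. Its groups did not overlap, and the difference was -0.92 (SE 0.24, limma adjusted p = 0.697). Rrp12, which acts in subunit maturation, differed by -1.12 with overlapping groups (limma adjusted p = 0.697).

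Among 14 genes of the RNA polymerase I machinery, which makes rRNA, 8 means were higher and 6 lower (median 0.03), while after normexp with 75th percentile scaling 5 were higher and 9 lower (median -0.12). Ubtf, the upstream binding factor of rRNA genes, read 4.24, 4.28, 4.83 and 4.71 in WT and 4.14, 4.20, 3.84 and 3.86 in Glis3KO2. The groups did not overlap, though WT replicate 1 and Glis3KO2 replicate 2 nearly met, and the difference was -0.50 (SE 0.23, limma adjusted p = 0.697). Taf1c, a subunit of the promoter selectivity factor, differed by -0.62. Of 16 genes of the mTOR, Larp1 and S6 kinase pathway, 6 means were higher and 10 lower (median -0.09). The median was 0.01, with 8 higher and 8 lower, after normexp with 75th percentile scaling, and -0.20 with the mean over probes. Mtor differed by -0.83 and Rps6kb1, which encodes S6 kinase 1, by 0.50. Mtor read 0.94, 1.48, 2.73 and 2.70 in WT and 1.51, 1.26, 0.48 and 1.28 in Glis3KO2, with WT replicates 3 and 4 highest and WT replicates 1 and 2 among the Glis3KO2 arrays.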

How the data were processed

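Per the file headers, Agilent Feature Extraction 12.0.0.7 made the deposited files, whose processed spot intensity is linear and was background-subtracted and detrended by that software, from scans at 2 gains. The deposited value table equals this intensity and was not used further. The deposited intensity was turned into log2 values here, and the 75th percentile of an array's non-control spots was subtracted. Spots flagged as outliers (73 to 109 an array) were left out, and spots of a probe were averaged. RefSeq accessions named the probes through a GRCm38.p6 gene table (28223 of 41174 named, 0 with several genes), while the headers' own annotation is on mm9. A probe was kept where it was well above background on 4 or more of the 8 arrays (36429 probes), and each gene was represented by its probe of highest mean.

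The genotype test was limma's (version 3.58.1, R 4.3.3), with lmFit and eBayes and no covariate, over 17513 genes, with Benjamini-Hochberg adjustment. The script was tested on simulated data. Same-numbered arrays deviated together (r = 0.16, 0.34, 0.18 and 0.13 over genes, all above 0.1), so the numbers in the labels were taken to pair the samples and the replicate block was run as an alternative. WT replicate 3 with Glis3KO2 replicate 4 (0.14) and WT replicate 4 with Glis3KO2 replicate 3 (0.12) exceeded that limit too, so numbers 3 and 4 are not told apart by it. Other alternatives were normexp (offset 50, on median spot signals), quantile and median scaling, other probe filters and rules, slide as a block, array weights, a trended robust spread, and leaving out arrays. Leaving out saturated probes changed nothing, as 0 spots were saturated. Sequences came from RefSeq promoter windows (GRCm38.p6).

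Members and gene lists were chosen with earlier results of these data known. Named genes were the X-linked, stalk and laminin receptor members, Rps6, Rps19, Rpl5 and Rpl11, the 5 of smallest p in each direction, the 2 of largest within-group SD, the 2 whose probes differ most, the measured paralogs (1 is not reported here), and the 2 of smallest p in each other list. Members followed by their likeness to the median, and Rpsa's probes, were named after values were seen.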

Additional observations from a re-analysis of the deposited data

Results flagged for a closer look

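Over both genotypes, 76 groups of 4 values were tested for an array far from its 3 partners. Chance alone flags about 1 in 20 such groups if they are independent, which groups that share arrays are not. In each flagged group, all named below, Glis3KO2 replicate 2 lay above the other Glis3KO2 arrays, so the flags are not separate events. The gap took up more of the group's range than Dixon's 95% limit for 4 values allows. The median of the 76 ribosomal protein genes there was 0.52 above the genes' own means. Rpl36a read 6.85 on that array, Rplp0 read 5.58, Rpl5 read 5.39, Rpl11 read 1.20 and Rpl37 read 5.34, each relative to the array's 75th percentile. Over all members, 13 of 76 had such an array in Glis3KO2 and 2 of 76 in WT, against 5.60% and 4.92% of all genes.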

How the results depend on the processing

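0 members passed the adjusted threshold under every alternative tried. Over all genes the count was 0 except with quantile normalization of log2 signal, which called 1 gene, the provisional Gm16702. The count of members at an unadjusted p under 0.05 was 0 in the main analysis. It was 1, Rpl14, with normexp and quantile normalization, quantile normalization of log2 signal, probes well above background on all 8 arrays, the mean over a gene's probes, the slide as a block and the replicate block, which kept the members' median at 0.09. It was 2 with every probe on its own (Rpl37 and Rps25). Leaving out 1 array gave 0 to 1, with Rpl14 again when WT replicate 2 or Glis3KO2 replicate 1 was left out.

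The median over members kept its sign except without WT replicate 3 (-0.01) and without Glis3KO2 replicate 2 (-0.09). The medians over all genes in these 2 settings were -0.07 and -0.08. The sign of single genes turned as follows, in log2 difference. After normexp with 75th percentile scaling the values were Rplp2 0.19, Rpsa 0.19, Rpl5 0.14, Rpl18 0.020, Rpl21 0.051, Rpl8 0.14, Rpl27 0.10 and Rpl37 0.10. With the mean over probes they were Rpl5 0.093, Rpl37 0.44 and Rps25 -0.37, and with array weights Rplp0 -0.026 and Rplp1 -0.010. Without WT replicates 3 and 4 together they were Rps4x -0.091, Rpl10 -0.051, Rpl39 -0.040, Rpsa 0.26, Rps25 -0.12, Rpl7l1 0.14, Rps4l 0.20, Fau -0.10 and Rack1 -0.071. The cause was not tested.

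Leaving out 1 array at a time gave ranges of -0.13 to 0.15 for Rplp0, -0.052 to 0.12 for Rplp1, -0.14 to 0.0076 for Rplp2, -0.23 to 0.12 for Rpsa, -0.23 to 0.0028 for Rpl5, -0.25 to 0.17 for Rpl37 and -0.10 to 0.21 for Rps25. Without a change of sign, they were 0.069 to 0.32 for Rps6, 0.11 to 0.45 for Rps9, 0.071 to 0.22 for Rpl11 and 0.048 to 0.46 for Rpl13a. The ranges were -0.21 to 0.25 for Rpl22l1, -0.096 to 0.22 for Rps27l, -0.083 to 0.17 for Fau and -0.035 to 0.21 for Rack1. 8 arrays, signal that is relative to each array, and position on the slide limit all of these values.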
